A study of Homo sapiens with 4 samples.

Results

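The genes described here encode the core of the TGF-beta signalling pathway: the activin subunit INHBA, the receptors TGFBR1, TGFBR2 and ACVR1, the signal transducers SMAD2, SMAD3 and SMAD4, the inhibitory SMAD7, and the corepressors SKI and SKIL. They were chosen by symbol, not by their values in any library. All 10 listed symbols had entries among the 12838 symbols of the expression table, and the 24 entries that carry these symbols were summed per gene. RNA had been recovered by immunoprecipitation from LM2-4175 cells, which descend from the breast cancer line MDA-MB-231 and colonise the lung, and which stably carry CerS4, a ceramide synthase, in a construct switched on by doxycycline. The antibody was directed against EXOSC10, a nuclear exoribonuclease of the RNA exosome, or was control IgG, and cells were left without doxycycline or were given 5 µg/mL doxycycline for 48 h before analysis. All 4 groups carry the construct and were grown under puromycin and hygromycin, and each group is 1 library, so the agent doxycycline and the construct it induces are not separated by a control line. The study's question was the part that PD-L1 bound to Caprin-1 plays in the breakdown of mRNA under disturbed lipid metabolism, and it set EXOSC10-bound RNA of treated cells against that of untreated cells first.

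TGF-beta and activin ligands bring together type I and type II receptors with serine/threonine kinase activity, and the type I receptor then phosphorylates SMAD2 and SMAD3, which enter the nucleus with SMAD4. SMAD7 blocks this step at the receptor, SKI and SKIL repress SMAD complexes on DNA, and SMAD7 and SKIL are themselves induced by the pathway, which forms a feedback loop. In breast cancer cells the pathway is known for its role in invasion and metastasis. The RNA exosome degrades RNA from its end, and an immunoprecipitation reports which RNAs came down with one of its subunits.

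In GRCh38, INHBA spans chr7:41685114-41705406, TGFBR1 chr9:99103647-99154192, TGFBR2 chr3:30606356-30694142 and ACVR1 chr2:157736446-157876330. SMAD2 spans chr18:47808957-47930872, SMAD3 chr15:67065602-67195169, SMAD4 chr18:51030213-51085042 and SMAD7 chr18:48919853-48950965. SKI spans chr1:2228319-2310213 and SKIL chr3:170357715-170396849.

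The libraries held 3723470 to 7575370 estimated reads. After ribosomal RNA genes, which took 56.3% to 83.8% of a library, 1023394 reads were left in the untreated EXOSC10 library and 2408279 in the doxycycline EXOSC10 library, the deepest for mRNA, with the IgG libraries between them. Each of the 7 mesenchymal markers checked for the line had an entry. VIM had 2079 to 4396 reads, SPARC 491 to 1387, AXL 174 to 321, CD44 73.5 to 917.5 and CAV1 50 to 296. MMP1, with 5 to 75 reads, and IL13RA2, with 1 to 31, were low. Of 4 luminal or epithelial markers, ESR1 and EPCAM had no entry analysed here, and PGR and CDH1 had at most 15.8 and 35.0 reads. CERS4, the gene of the construct, had no entry analysed here, so its induction could not be checked.

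A ratio below is the log2 ratio of CPM (counts per 1000000 reads of a library) after TMM scaling, which takes a trimmed mean of the gene-wise ratios between libraries as the common level, with 0.2 CPM added to each value. Its interval is a 95% counting interval from the estimated reads of the libraries compared. With 1 library per group the ratios have no replicate check and no p-value, and a gene was called higher or lower where the pair of libraries held at least 100 reads together and differed at least 2-fold. The amount of an mRNA in the cells and its recovery by the antibody cannot be told apart, nor can fewer cells and less RNA per cell.

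With doxycycline, 4 of these mRNAs differed at least 2-fold in the EXOSC10 libraries. The feedback inhibitor SMAD7, the corepressor SKIL and the activin subunit INHBA were lower at least 2-fold, and the type I receptor ACVR1 was the 1 member that was higher at least 2-fold. The other receptors and SMAD3 lay above 0, and SMAD2, SMAD4 and SKI lay below it without reaching 2-fold. All 10 members had 100 reads in this pair, so 3 of 10 were lower and 1 of 10 higher, where 3.98% and 6.06% of the 6584 genes tested were. The median of the 10 members was -0.48, beside -0.04 over all genes tested. These counts rest on few genes that were picked as a pathway, and they describe these libraries only.

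The sequences just before the annotated starts of the called members are shown because they are the regulatory DNA that goes with the genes that differed most. They are the 250 bases before the outermost RefSeq start (GRCh38.p14), 5′ to 3′ on the gene's strand, and capitals mark CAGAC, a core of SMAD-binding elements, on either strand, and TGACGTCA, the cyclic AMP response element. SMAD7 lies on the minus strand (chr18:48950966-48951215), SKIL on the plus strand (chr3:170357465-170357714) and ACVR1 on the minus strand (chr2:157876331-157876580).
SMAD7: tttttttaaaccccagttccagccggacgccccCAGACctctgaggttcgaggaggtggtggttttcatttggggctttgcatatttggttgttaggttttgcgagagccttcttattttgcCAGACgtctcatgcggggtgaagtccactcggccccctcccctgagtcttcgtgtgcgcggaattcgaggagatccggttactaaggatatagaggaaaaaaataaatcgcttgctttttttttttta
SKIL: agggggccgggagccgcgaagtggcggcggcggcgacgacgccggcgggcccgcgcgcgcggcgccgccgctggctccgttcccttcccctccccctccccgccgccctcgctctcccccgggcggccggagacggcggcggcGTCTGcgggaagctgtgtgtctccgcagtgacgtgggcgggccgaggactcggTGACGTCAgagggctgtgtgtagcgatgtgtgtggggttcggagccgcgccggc
ACVR1: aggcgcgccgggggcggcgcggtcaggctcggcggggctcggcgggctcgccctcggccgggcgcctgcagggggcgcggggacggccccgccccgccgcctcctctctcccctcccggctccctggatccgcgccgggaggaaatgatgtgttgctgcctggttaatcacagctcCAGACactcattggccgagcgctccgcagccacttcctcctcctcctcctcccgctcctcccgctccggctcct

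The window of SMAD7 held CAGAC 2 times, and those of SKIL and ACVR1 held it or its reverse complement GTCTG 1 time each. Of the 35116 windows of this length in the table, 38.0% held it, so its presence does not set these genes apart. TGACGTCA, which is its own reverse complement, was in the SKIL window and in 1.65% of all windows. The palindrome GTCTAGAC, formed by a pair of SMAD half-sites, was in none of the 9 members' windows and in 0.182% of all windows. Only 1 window per member was searched, though SMAD7 and ACVR1 have 3 windows each, SMAD3 5 and TGFBR1 8. Absence of a motif thus holds for the searched window and not for the gene. The 9 members' windows are those with an entry in the RefSeq promoter table, and the INHBA start in that table lies inside the gene's annotated span, so its window is not printed. The motifs were chosen after the sequences had been seen, and a match is only a match of letters.

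**Figure D1:**
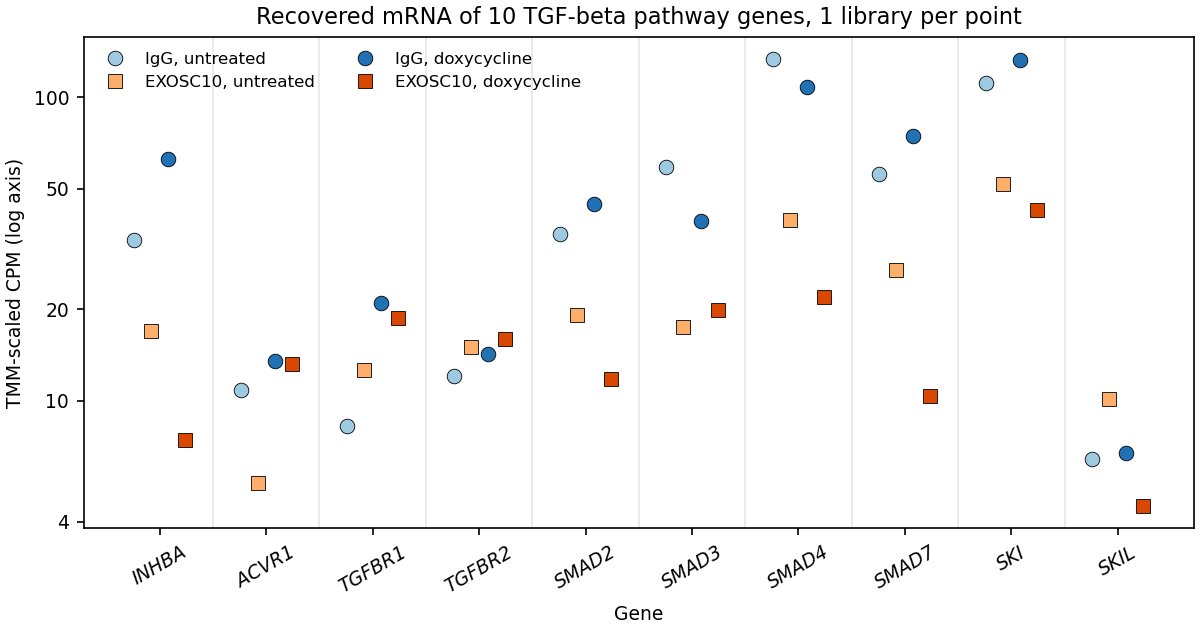
TMM-scaled CPM (log axis) of the 10 genes in each of the 4 libraries, 1 point per library: circles for IgG, squares for EXOSC10, pale for untreated and dark for doxycycline. Levels compare within a gene only, since they are not per length; for SMAD7 and INHBA the dark square is the lowest point of the 4 (10.4 and 7.40 CPM), for ACVR1 the pale square is (5.35 CPM).

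INHBA encodes the subunit that forms activin A, a ligand of the activin branch of the family. It had 90 reads with IgG and 89 with EXOSC10 in untreated cells, and 215 with IgG and 102 with EXOSC10 after doxycycline. Scaled, this was 33.8, 17.0, 62.7 and 7.40 CPM in the same order, so that the doxycycline libraries held both the highest and the lowest level. The EXOSC10 ratio of doxycycline over untreated was -1.18 (-1.62 to -0.77), or 2.26-fold lower, and the IgG ratio was 0.89 (0.53 to 1.26). In the EXOSC10 pair 2.19% of all genes tested had a lower ratio than INHBA. INHBA-AS1, which overlaps it on chromosome 7, had 18 reads in the doxycycline EXOSC10 library and none in the other libraries. Whether the counting used strand is not given in the sources used here, and with both genes summed the EXOSC10 ratio was -0.95, short of 2-fold.

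The 3 receptors had EXOSC10 ratios above 0. TGFBR1, the type I receptor of TGF-beta, had 22 and 66 reads with IgG and EXOSC10 untreated, and 72 and 259 with doxycycline. Its scaled level was higher with doxycycline for either antibody. The ratio was 0.57 (0.18 to 0.99) in the EXOSC10 pair and 1.32 (0.64 to 2.10) in the IgG pair, where its 94 reads fell short of the minimum.

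TGFBR2, the type II receptor that binds TGF-beta first, had 32 and 79 reads untreated and 49 and 221 with doxycycline, IgG before EXOSC10. The scaled levels of its 4 libraries lay close together, from 12.0 to 16.0 CPM. Its EXOSC10 ratio was 0.09 (-0.29 to 0.48) and its IgG ratio 0.24 (-0.42 to 0.94), intervals that include 0. The difference between TGFBR1 and TGFBR2 in the EXOSC10 pair, which no scaling can change, was 0.49 with an interval from -0.05 to 1.03.

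ACVR1, a type I receptor of the activin and bone morphogenetic protein branch, had 28.9 and 28 reads untreated and 46.3 and 182 with doxycycline, IgG before EXOSC10. The untreated EXOSC10 library stood lowest at 5.35 CPM, and the other libraries lay between 10.9 and 13.5 CPM. The EXOSC10 ratio was 1.27 (0.72 to 1.93), or 2.41-fold higher, and 96.4% of the genes tested lay below it. The IgG ratio was 0.31 (-0.39 to 1.04) on 75.2 reads. Between the type I receptors, ACVR1 exceeded TGFBR1 by 0.72 (0.03 to 1.42) in the EXOSC10 pair and was below it by -1.03 (-1.99 to -0.07) in the IgG pair. ACVR1, like SMAD3 and SKIL, held fractions of reads even when its entries were summed, and its values are less certain than those of TGFBR1 and TGFBR2.

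SMAD2 and SMAD3, the transducers phosphorylated by the TGF-beta and activin receptors, differed from each other. SMAD2 had 94 and 100 reads untreated and 153 and 163 with doxycycline, IgG before EXOSC10, and its EXOSC10 ratio was -0.68 (-1.06 to -0.32). SMAD3 had 157 and 91.8 reads untreated and 134 and 275 with doxycycline, and its EXOSC10 ratio was 0.19 (-0.16 to 0.54). In the IgG pair the order was turned, with SMAD2 at 0.33 (-0.04 to 0.72) and SMAD3 at -0.59 (-0.94 to -0.25). SMAD2 minus SMAD3 was -0.88 (-1.37 to -0.38) with EXOSC10 and 0.93 (0.43 to 1.43) with IgG, so the counting intervals of these differences, which are free of the scaling, lay on opposite sides of 0.

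SMAD4, the common partner of the other SMADs, had 355 and 207 reads untreated and 371 and 304 with doxycycline, IgG before EXOSC10. Its scaled level was lowest in the doxycycline EXOSC10 library, at 22.0 CPM, and highest in the untreated IgG library, at 133.5 CPM. The doxycycline ratio was -0.84 (-1.10 to -0.58) with EXOSC10 and -0.30 (-0.52 to -0.09) with IgG, on the same side of 0 for both antibodies.

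SMAD7 was the member with the lowest ratio in the EXOSC10 pair. It had 148 and 141 reads untreated and 256 and 143 with doxycycline, IgG before EXOSC10. Its number of reads in the EXOSC10 libraries was thus nearly equal while the doxycycline library held more than 2-fold as many non-ribosomal reads. Scaled, it went from 26.9 to 10.4 CPM with EXOSC10, a ratio of -1.36 (-1.72 to -1.03) or 2.57-fold lower, and from 55.7 to 74.7 CPM with IgG, a ratio of 0.42 (0.13 to 0.73). Of the genes tested in the EXOSC10 pair, 1.26% lay lower. SMAD7 minus TGFBR1, the receptor that it inhibits, was -1.95 (-2.47 to -1.44), and SMAD7 minus INHBA was -0.18 (-0.71 to 0.35). SMAD2, SMAD7 and SMAD4 lie in this order within 3.28 Mb of chromosome 18 (47808957 to 51085042, GRCh38). All 3 had EXOSC10 ratios whose intervals lay below 0, as did SKI, SKIL and INHBA on other chromosomes, 6 of the 10 members together. The share of all genes with such intervals is not given here, and whether position plays a part was not tested. With library totals SMAD2 (0.32) and SMAD4 (0.17) were above 0.

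SKI and SKIL (SnoN) are related corepressors that bind SMAD complexes. SKI had 296 and 272 reads untreated and 454 and 588 with doxycycline, IgG before EXOSC10, the most reads of any member in the doxycycline libraries, and its ratio was -0.28 (-0.49 to -0.07) with EXOSC10 and 0.25 (0.04 to 0.47) with IgG. SKIL had 17.0 and 53.2 reads untreated and 23 and 62.2 with doxycycline, and its EXOSC10 ratio was -1.14 (-1.72 to -0.62), or 2.20-fold lower. Its IgG ratio, 0.06 on 40.0 reads, had an interval from -0.90 to 1.06, which overlaps that of the EXOSC10 ratio. SKIL minus SKI was -0.89 (-1.46 to -0.32) in the EXOSC10 pair.

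**Figure D2:**
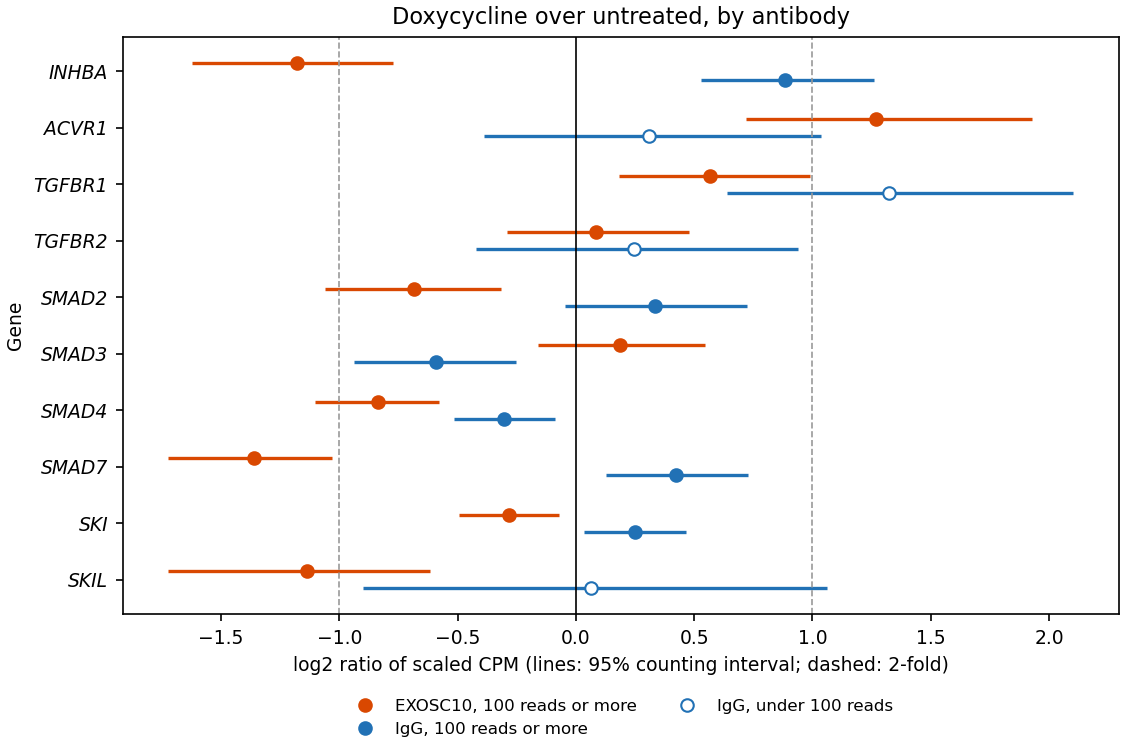
log2 ratio of doxycycline over untreated (x axis) for each gene (y axis) in the EXOSC10 libraries (orange) and the IgG libraries (blue), with 95% counting intervals as lines, open points where a pair held under 100 reads and dashed lines at 2-fold. INHBA, SMAD7 and SKIL lie beyond 2-fold on the lower side with EXOSC10 (-1.18, -1.36 and -1.14), while INHBA and SMAD7 lie above 0 with IgG (0.89 and 0.42).

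In the IgG pair, 6 members had 100 reads and none of them reached 2-fold, where 2.97% of the 3027 genes tested were higher and 3.44% lower. The doxycycline ratio had the same sign with both antibodies for TGFBR1, TGFBR2, ACVR1 and SMAD4. Of these only TGFBR1 and SMAD4 had intervals clear of 0 in both pairs, TGFBR1 with under 100 reads in the IgG pair. The share of all genes with the same sign is not given here, so this does not set the members apart. The change of the EXOSC10 over IgG ratio with doxycycline, which sets the EXOSC10 pair against the IgG pair, was -2.06 (-2.63 to -1.55) for INHBA, -1.78 (-2.25 to -1.36) for SMAD7 and -1.02 (-1.54 to -0.51) for SMAD2. These 3 of the 6 members with 100 reads in each pair were lower at least 2-fold, where 10.9% of 2946 genes were, and none was higher, where 4.75% were. With library totals the count turned to 3 higher (SMAD3 at 2.44, SMAD4 at 1.13 and SKI at 1.14) and 0 lower, while all genes went from 140 higher and 321 lower to 2275 and 11. SMAD2 fell short of 2-fold with upper quartile scaling (-0.95), with 1 CPM added (-0.98) and with TMM over genes with 50 reads in every library (-0.85). SMAD3 was on the other side at 0.78 (0.31 to 1.26), and ACVR1, short of the minimum with IgG, was at 0.96 (0.10 to 1.87).

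The additive test of doxycycline over all 4 libraries (limma, antibody as covariate, in which the antibodies stand in for replicates and 1 residual degree of freedom is left) called 0 of 9594 genes at an adjusted p of 0.05 (0.0% of the genes tested), with 444 genes at an unadjusted p under 0.05. TGFBR1 was the 1 member among these, with a limma log2 difference of 0.95 and adjusted p = 0.85. In that test SMAD7 was at -0.47 (limma adjusted p = 0.87) and INHBA at -0.15 (limma adjusted p = 0.98), values that average the opposite ratios of their antibody pairs.

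The ratios depend on the scaling, while the differences between members do not. With library totals in place of TMM the scaling factors shift the EXOSC10 ratios up by 1.02, slightly less for low genes because of the added 0.2 CPM. SMAD7 is then at -0.36, INHBA at -0.18 and SKIL at -0.15, still below 0, whereas SMAD2, SMAD4 and SKI turn positive and TGFBR1, TGFBR2, ACVR1 and SMAD3 reach 2-fold on the higher side. The share of ribosomal RNA, 75.8% and 56.3% of the untreated and doxycycline EXOSC10 libraries, enters library totals. With totals of the non-ribosomal reads alone, the shift is 0.16, SMAD7 is at -1.20, INHBA at -1.02 and ACVR1 at 1.44, and SKIL, at -0.99, no longer reaches 2-fold.

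Several members were made up of more than 1 entry, and the division of reads between entries differed between libraries. The table gives the entries no transcript name, so they are numbered here by their total level. In the EXOSC10 libraries, SMAD7 entry 1 had 123 reads untreated and 62.8 with doxycycline, a ratio of -2.32. SMAD7 entry 2 went from 17.8 to 65.9 reads, a ratio of 0.47. As the reads were divided, the lower level of SMAD7 lay on entry 1. It held 87.4% of the gene's EXOSC10 reads untreated and 43.9% with doxycycline. The division also shifted in the IgG libraries, where the doxycycline ratio was 0.86 for entry 1 and -2.49 for entry 2.

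The receptors and SMAD2 showed such a division as well. TGFBR1 entry 1 had a ratio of -0.77 in the EXOSC10 pair, entry 2 of 1.15 and entry 3 of 2.88, the last with 4.52 reads untreated and 105 with doxycycline. With only the entry of highest total level, TGFBR1 would be on the lower side, so its ratio of 0.57 holds for the sum of entries alone. SMAD2 entry 3 held 24.9% of the gene's EXOSC10 reads untreated and 0.615% with doxycycline, or 24.9 and 1.00 reads.

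In ACVR1 the reads of entries 2 to 5 stood in nearly fixed proportion to each other and were absent from the untreated EXOSC10 library, where entry 1 held all 28 reads; entry 1 alone had a ratio of 0.45. SKIL entry 1 had 53.0 EXOSC10 reads untreated and 26.6 with doxycycline, while entry 3 had 0.104 and 35.4. The sums were whole to within 0.05 reads for 7 of the 10 members, but most entries of members with several held fractions. A division of reads among overlapping gene models can shift between libraries without a change of the sum, and its part here was not tested. INHBA, SMAD4 and SKI had a single entry each.

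**Figure D3:**
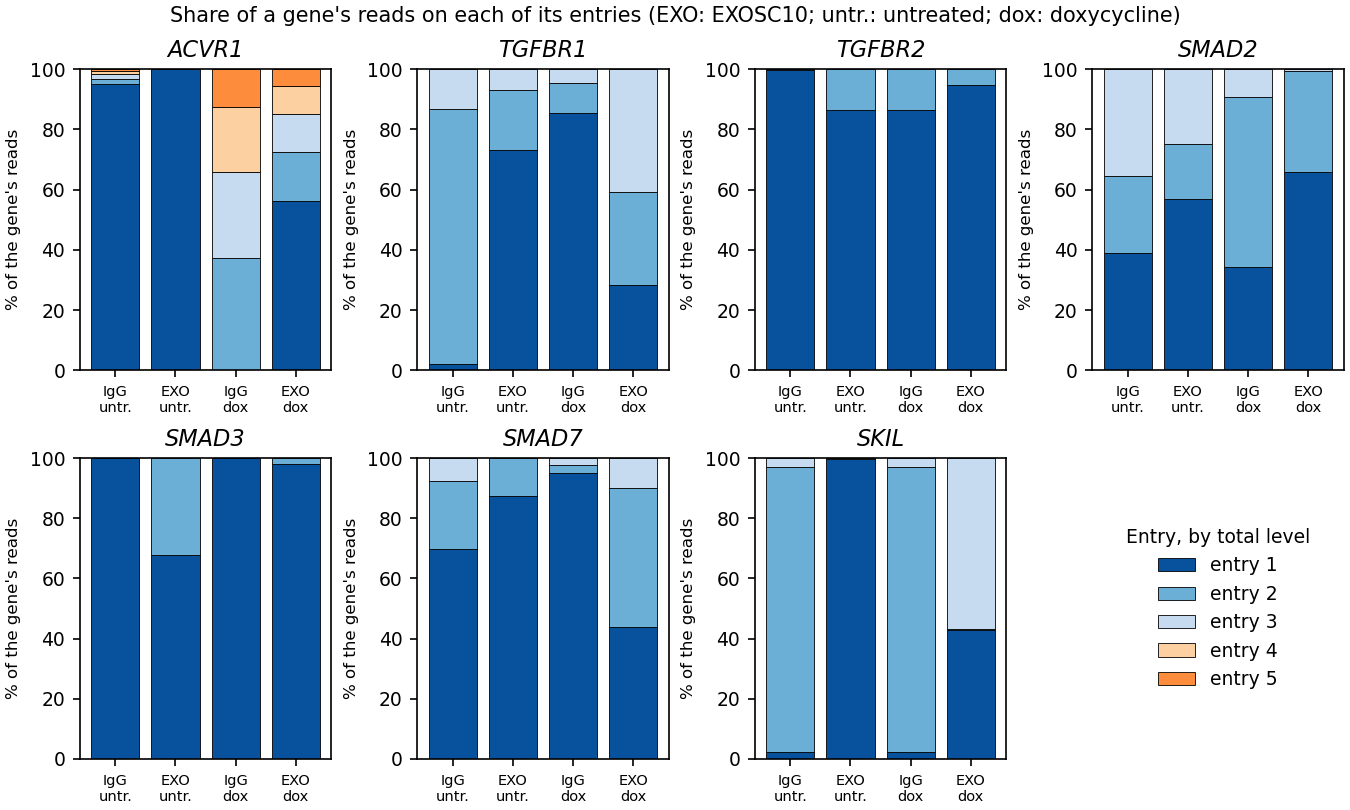
Share of a gene's reads (y axis, %) on each of its entries in the 4 libraries (x axis) for the 7 members with several entries, stacked from the entry of highest total level (dark blue) upward. The share of SMAD7 entry 1 is 87.4% in the untreated EXOSC10 library and 43.9% with doxycycline, and TGFBR1 entry 1 goes from 73.3% to 28.3%.

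In EXOSC10 over IgG, 7 of the 10 members were below IgG in both treatments: the 4 SMADs, SKI, INHBA and the receptor ACVR1. For ACVR1 the interval with doxycycline included 0 and the untreated pair was short of 100 reads. The share of all genes below IgG in both treatments is not given here. The median over all genes tested was -0.45 untreated and 0.05 with doxycycline. TGFBR2 was above it in both, and TGFBR1 and SKIL were above it untreated and below it with doxycycline. Untreated, SMAD4 was at -1.75 (-2.01 to -1.50), SMAD3 at -1.74 (-2.14 to -1.37), SKI at -1.10 and SMAD7 at -1.04, and these 4 of the 7 members with 100 reads were lower at least 2-fold, where 36.1% of 3619 genes were. With doxycycline, INHBA was at -3.05 (-3.44 to -2.74), SMAD7 at -2.82 (-3.15 to -2.55), SMAD4 at -2.28, SMAD2 at -1.90 and SKI at -1.63, which made 5 of 9 members, where 26.6% of 6279 genes were lower. No member was higher at least 2-fold in either treatment, where 5.36% and 14.0% of genes were. The shares of all genes were not matched to the members in reads, and the lower share was larger among genes with more reads. These comparisons of EXOSC10 with IgG share libraries with the doxycycline comparisons above. The direction is relative to the TMM level: with library totals 1 member was higher and 0 lower untreated, and 4 higher and 0 lower with doxycycline. With non-ribosomal totals 1 was higher and 0 lower untreated, and 1 higher and 3 lower with doxycycline.

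The receptors had intervals that include 0 with doxycycline: TGFBR1 at -0.16 (-0.54 to 0.24), TGFBR2 at 0.16 (-0.29 to 0.64) and ACVR1 at -0.03 (-0.51 to 0.46). These values hold for summed entries: with only the largest entry of each gene, ACVR1 was higher at 5.19 and TGFBR1 lower at -1.72. Untreated, TGFBR1 was at 0.60 and TGFBR2 at 0.32, and ACVR1 at -0.996 (-1.83 to -0.22) on 56.9 reads. The scaling-free difference of SMAD7 and TGFBR1 was -1.65 (-2.43 to -0.88) untreated and -2.69 (-3.17 to -2.21) with doxycycline. SKIL exceeded SKI by 1.77 (0.94 to 2.59) untreated and 1.06 (0.35 to 1.77) with doxycycline, and SMAD2 minus SMAD3 turned from 0.86 (0.31 to 1.41) to -0.95 (-1.38 to -0.51).

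**Figure D4:**
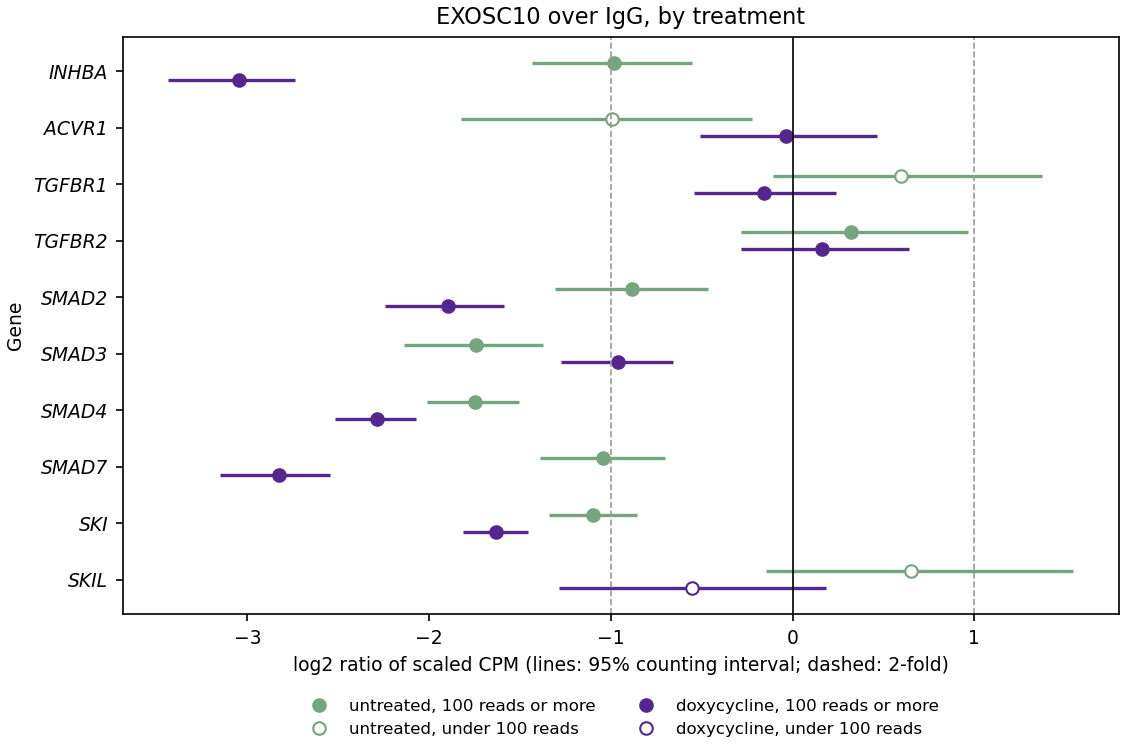
log2 ratio of EXOSC10 over IgG (x axis) for each gene (y axis), untreated (green) and with doxycycline (purple), with 95% counting intervals as lines, open points where a pair held under 100 reads and dashed lines at 2-fold. INHBA and SMAD7 are the lowest with doxycycline (-3.05 and -2.82), and TGFBR2 is at 0.32 and 0.16.

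The additive test of the antibody (limma, treatment as covariate, with the treatments standing in for replicates) called 6 of the 10 members. Each was lower with EXOSC10, where 15.9% of 9594 genes were lower and 1.37% higher. Those genes were not matched to the members in reads. Untreated, EXOSC10 over IgG was lower at least 2-fold for 1914 of 8527 genes with 20 reads and 476 of 711 with 500. With doxycycline the counts were 2158 of 10945 and 735 of 1468. At 500 reads the median was -1.52 untreated, between SMAD4 (-1.75) and SKI (-1.10), and -1.01 with doxycycline, above both (-2.28 and -1.63). Only SMAD4 and SKI of the members had 500 reads in these pairs, so the other called members have no such comparison. Whether the count of 6 sets the members apart thus cannot be told from these values. SMAD4 had a limma log2 difference of -2.02 (adjusted p = 0.0018), INHBA of -2.02 (adjusted p = 0.017), SMAD7 of -1.93 (adjusted p = 0.012) and SKI of -1.36 (adjusted p = 0.0072). SMAD2 was at -1.39 (limma adjusted p = 0.023) and SMAD3 at -1.35 (limma adjusted p = 0.017). TGFBR1 (0.22), TGFBR2 (0.24), ACVR1 (-0.52) and SKIL (0.05) did not pass the limma test, with adjusted p from 0.44 to 0.96. The calls depend on the scaling: with library totals 0 of the members were called, and SMAD2, SMAD3 and SKI were then on the higher side. With median-of-ratios scaling 6 were called. The test was not run with non-ribosomal totals or TMM over genes with 50 reads in every library. Those scalings shift the EXOSC10 over IgG ratios up by 0.96 to 1.13.

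Around these members, 107 other genes of the pathway in 6 lists were followed, and 99 had entries. In the EXOSC10 pair, 71 had 100 reads; 1 was higher and 2 were lower at least 2-fold with doxycycline, where 6.06% and 3.98% of all genes were, and their median was -0.12. Of the ligands and the proteins that store or activate them, 0 of 15 reached 2-fold; FURIN, the protease that cleaves the TGF-beta precursor, was at -0.99 (-1.44 to -0.57), and the integrin subunit gene ITGAV at 0.44 (-0.16 to 1.11). Of 4 other receptors and co-receptors, TGFBRAP1, a TGF-beta receptor-associated protein, was higher at 1.30 (0.74 to 1.99), and the pseudoreceptor BAMBI was at -0.42. Of 10 other SMADs and nuclear partners, ZEB2, a SMAD-interacting repressor, was lower at -1.998 (-2.33 to -1.71), and E2F4 was at -0.71.

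The genes that act on receptor and SMAD turnover had a median of -0.37 over 18 genes and none at 2-fold; the ubiquitin ligase WWP2 was at -0.87 and the phosphatase PPP1CA at -0.78. Of 12 SMAD target genes, ID1, an inhibitor of DNA binding induced by SMADs, was lower at -1.07 (-1.56 to -0.62), COL1A1 was at -0.81 and the list's median was -0.33. Among 12 genes of signalling outside the SMADs, MAPK8 (JNK1) was at 0.91 and AKT1 at -0.89. Of these named genes FURIN, ZEB2, WWP2, PPP1CA, MAPK8 and AKT1 held fractions of reads in at least 1 library.

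**Figure D5:**
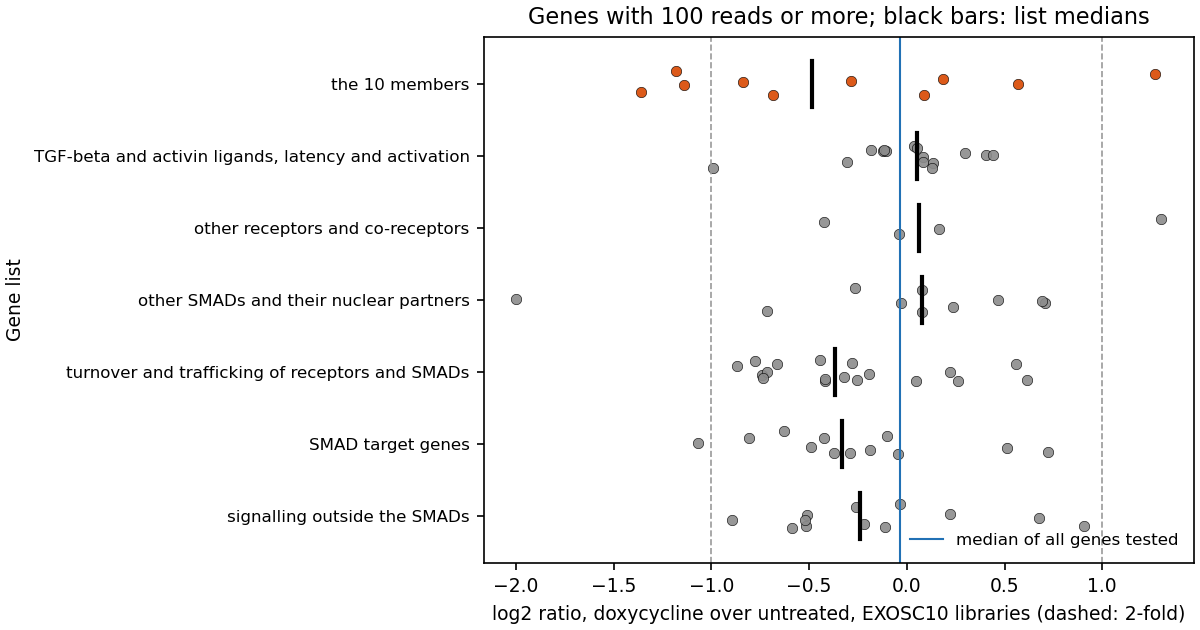
log2 ratio of doxycycline over untreated in the EXOSC10 libraries (x axis) for the 10 members (orange) and the tested genes of 6 pathway lists (grey, y axis), with list medians as black bars, the median of all genes tested as a blue line and dashed lines at 2-fold. The members' median is -0.48, and of the list genes TGFBRAP1 (1.30), ZEB2 (-1.998) and ID1 (-1.07) lie beyond 2-fold.

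In EXOSC10 over IgG, the ligand genes TGFB2 (1.26 untreated and 0.85 with doxycycline) and TGFB1 (0.86 and 0.73) were highest of their list. TGFB3, the third TGF-beta gene, named after its values were seen, was at -3.01 untreated and, short of 100 reads, at -1.73 with doxycycline. Among the genes with 100 reads in each pair, FURIN (-1.81 and -2.32) and the procollagen protease BMP1 (-1.42 and -1.27) were lowest. The type II receptor BMPR2, the 1 other receptor with 100 reads in each pair, was at -1.82 and -2.14. Of the nuclear partners, ZEB2 (-1.42 and -3.62) and the acetyltransferase CREBBP (-0.56 and -1.35) were lowest, and E2F4 (-0.06 and -0.67) and the inhibitory SMAD6 (-0.77 and -0.12) highest.

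In the turnover list, 11 of 16 genes untreated and 12 of 18 with doxycycline were lower at least 2-fold. Of all genes, which were not matched to the list in reads, 36.1% and 26.6% were lower. The deubiquitinase USP9X (-2.02 and -3.54) and the ubiquitin ligase RNF111 (-1.83 and -2.78) were lowest, while NEDD4L (0.34 and 0.74) and PPP1R15A (0.60 and 0.65) were highest. Among the targets, FN1 (-2.09 and -2.11) and CCN1 (-1.95 and -2.23) lay low and MYC (0.53 and 0.76) and VEGFA (-0.77 and 0.41) highest. PPP2CA (-2.37 and -2.41) and RHOA (-1.94 and -2.44) were lowest of the genes outside the SMADs, and MAPK14 (0.37 and 0.08) and ROCK2 (-0.98 and 0.10) highest. All these EXOSC10 over IgG ratios are relative to the TMM level: non-ribosomal totals shift them up by 1.02 untreated and 1.04 with doxycycline. TGFB2, FURIN, BMP1, ZEB2, RNF111 and NEDD4L held fractions of reads in at least 1 library. So did FN1, MYC, VEGFA, PPP2CA, RHOA and MAPK14.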

How the data were processed

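The authors deposited a table whose 4 columns were read as CPM from their values: once a constant of 0.0001 is taken off every entry, the columns sum to 999999 to 1000000. STAR and Partek with build hg38 are named per the submitters' processing notes, and no source used here gives their versions, the strand setting or how reads were assigned. The table held 24015 entries, and each reached at least 10.0 reads in some library, and fainter genes are not analysed here. Entries were summed per symbol, and reads were estimated from the CPM step worth 1 read. Between 66.6% and 73.3% of the symbols in a library were within 0.05 of whole reads, so the limma tests used no count model. The intervals treat the estimated reads as counts, also for ACVR1, SMAD3 and SKIL, whose sums held fractions.

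TMM scaling used all 4 libraries with a trim of 30% for ratios and 5% for levels. Intervals are exact Clopper-Pearson intervals on the reads (from summed reciprocal reads for the change of enrichment and for differences between members). They and the floor of 3 reads cover counting error only: copies made in PCR were not told apart. limma 3.58.1 (R 4.3.3) tested log2(CPM + 0.2) with the trend option, adjusting p-values after Benjamini-Hochberg over genes with 10 reads in at least 2 libraries. The ratio and limma steps were tested on simulated data. Nothing in the labels says that libraries came from separate cultures.

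The members, the 6 lists, the tests and the alternatives were chosen with earlier results of these data known. Named genes were all 10 members and, from each list, those at 2-fold and the 2 of largest ratio in the EXOSC10 pair, the 2 highest and 2 lowest in EXOSC10 over IgG (mean of both treatments) among those with 100 reads in each pair, and genes overlapping a member. Gene coordinates and promoter windows are from RefSeq GRCh38.p14, a patch release of the assembly that hg38 names. Alternatives were other scalings, pseudocounts, read minimums, entries, overlapping genes and covariates.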

Additional observations from a re-analysis of the deposited data

Results flagged for a closer look

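For 3 members the ratio of doxycycline over untreated had opposite signs with EXOSC10 and with IgG, each with a counting interval clear of 0. The share of all genes that meet this rule is not given here, so the count does not set the members apart. The EXOSC10 ratio minus the IgG ratio was -2.06 for INHBA, -1.78 for SMAD7 and -0.53 for SKI on the log2 scale. Each ratio rests on a single pair of libraries, so the difference was not tested. With library totals in place of TMM, INHBA kept opposite signs (-0.18 with EXOSC10 and 0.23 with IgG), SMAD7 was below 0 with both antibodies (-0.36 and -0.23), and SKI was at 0.73 and -0.41. With TMM over genes with 50 reads in every library, SKI was at -0.006 with EXOSC10 and 0.35 with IgG.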

How the results depend on the processing

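The counts of members called at 2-fold depended on scaling and on the read minimum. In the EXOSC10 pair the main count of 4 became 2 with only the largest entry of each symbol, 2 with TMM over genes with 50 reads in every library (an alternative chosen after seeing the data, under which SMAD7 and ACVR1 were called) and 0 with a minimum of 500 reads, which left 2 members. It became 3 with non-ribosomal totals, where SKIL lost its call, and 3 with overlapping genes summed, where INHBA did. In the IgG pair the count of 0 became 1 with library totals (SMAD3, lower), 1 with non-ribosomal totals (INHBA, higher) and 1 with a minimum of 20 reads (TGFBR1, higher). For EXOSC10 over IgG untreated, 4 lower became 2 lower with the upper quartile and 2 lower with a minimum of 500 reads, and with library totals, non-ribosomal totals or TMM over genes with 50 reads it became 1, TGFBR2, on the higher side. With doxycycline, 5 became 2 at that minimum, and for the change of enrichment 3 became 0. EXOSC10 over IgG with doxycycline went from 5 lower to 1 higher (TGFBR2 at 1.19) and 3 lower with non-ribosomal totals. It went to 2 higher (TGFBR2 at 1.28 and ACVR1 at 1.08) and 3 lower with TMM over genes with 50 reads. SMAD2 (-0.87 and -0.78) and SKI (-0.59 and -0.50) lost their calls under these scalings. With library totals 1133 genes were higher and 523 lower in EXOSC10 over IgG untreated (194 and 1305 with TMM), 5080 and 34 with doxycycline (882 and 1670), and 3150 and 8 in the EXOSC10 pair (399 and 262). With library totals the EXOSC10 over IgG ratios with doxycycline of SMAD2 (0.55), SMAD4 (0.17) and SKI (0.83) turned positive, as did the change of SMAD2 (0.64) and the limma antibody differences of SMAD2 (0.23), SMAD3 (0.27) and SKI (0.26). The limma antibody test called 1654 genes, and 520 with library totals; the doxycycline test called 0, 11 with library totals and 4 without a filter. The cause was not tested. SMAD7, INHBA and SKIL stayed below 0 in the EXOSC10 pair in all settings that tested them, from -2.32 to -0.36, -1.27 to -0.18 and -1.23 to -0.15. Depth limits TGFBR1, TGFBR2, ACVR1 and SKIL most, at 40.0 to 94 reads in the IgG pair. No paired analysis was possible because each group is 1 library, and leaving out a library would leave no residual degree of freedom.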

Other observations

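Some pathway genes under the read minimum were seen almost only in particular libraries. They were picked after their values were seen and held few reads. All entries reached at least 10.0 reads in some library. ANGPTL4, FOXH1, PMEPA1 and INHBA-AS1 did so only in the doxycycline EXOSC10 library, the deepest for mRNA. Their higher level there was thus fixed by their having an entry, and the folds below only describe it. ANGPTL4, a TGF-beta-induced secreted factor of lung metastasis, had 0 reads in the untreated EXOSC10 library and 35.4 with doxycycline. This was 4.48-fold higher with the untreated library taken at a floor of 3 reads. FOXH1, a DNA-binding partner of SMAD2, had 0 and 25.1 reads (3.18-fold higher against the floor). PMEPA1, a membrane protein that restrains SMAD2 and SMAD3 signalling, had no full read before treatment and 22.8 after it (2.88-fold higher against the floor). These folds take the higher count as exact and are not lower bounds. The counting intervals of the log2 ratios reached down to 1.79 for ANGPTL4, 1.26 for FOXH1 and 1.04 for PMEPA1. ANGPTL4, FOXH1 and PMEPA1 held fractions of reads. INHBA-AS1 went from 0 to 18 whole reads, 2.28-fold higher against the same floor.

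PTHLH, the SMAD target gene of parathyroid hormone-related protein, had no read with IgG in either treatment and 16 and 51 whole reads with EXOSC10, in untreated and treated cells. It has an entry only through the EXOSC10 libraries, so its higher level with EXOSC10 was likewise fixed by its having an entry. Against the floor of 3 reads with IgG, the level was 2.71-fold higher untreated and 4.23-fold higher with treatment. Scaled by library totals, these folds were 4.69-fold and 23.4-fold. They take the EXOSC10 count as exact and are not lower bounds. With TMM the counting intervals of the log2 ratios reached down to 0.97 untreated and 1.73 with treatment.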
